A study of Mus musculus with 15 samples.

Results

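The 32 genes described here carry cells through the division cycle: cyclins and cyclin-dependent kinases of G1, their counterparts of S phase to mitosis, mitosis and proliferation genes, DNA replication genes, and genes of the RB, E2F and DREAM regulators. They were found by symbol in the gene table of the study, and all 32 were among its 36144 symbols. The questions were whether such genes are present in captured motor neurons, which have left the cycle, and whether they move with Cdkn1a, the gene of the cyclin-dependent kinase inhibitor p21, or with glial RNA.

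The study measured poly(A) RNA of lumbar motor neurons (segments L1 to L3) taken by laser-capture microdissection from mice at postnatal day 6, in a severe mouse model of spinal muscular atrophy, a motor neuron disease caused by too little SMN protein. The 15 libraries formed 5 groups, each of 3 biological replicates, and the neurons had been labelled with cholera toxin subunit B, per the series' design text. WT mice were Smn+/+ littermates, SMA mice were Smn-/-, and every group carried the transgenes SMN2 and SMNdelta7 on an FVB background. WT and SMA mice were given vehicle. The 3 treated groups were all Smn-/- and received daily intraperitoneal injections from postnatal day 0: SMN-C3, which modifies SMN2 splicing, at 3 mg/kg in SMA+SMN-C3; the p53 inhibitor Pifithrin-alpha at 2.2 mg/kg in SMA+Pifithrin-alpha; and MW150, which inhibits p38 alpha, at 5 mg/kg in SMA+MW150. Both sexes were used in equal proportions, per the labels. The labels do not say whether a library pools animals.

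Progress through the cycle is driven by kinases that work only when bound to a cyclin. D-type cyclins with Cdk4 and Cdk6, then cyclin E with Cdk2, phosphorylate RB proteins and release E2F factors, which turn on the genes of DNA replication, and cyclin A and cyclin B with Cdk1 then lead the cell into mitosis. The p53 target p21 blocks these kinases, so RB proteins stay active and the DREAM complex represses the mitotic genes; most mature neurons keep only the G1 side of this machinery, for which roles outside division are known.

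Values are TPM per gene, a share of each library corrected for transcript length and scaled to the same total, so levels can be compared between genes. Differences are given as log2 changes of TPM + 1, fitted with limma over all 15 libraries. The threshold for a call was 0.05 on p-values adjusted by Benjamini-Hochberg over 15425 genes. These were the genes that reached 1 TPM in 3 or more of the 15 libraries, whatever their group. All 32 genes passed that filter. The WT libraries held 35.9, 47.5 and 44.7 TPM of Cdkn1a itself, and the SMA libraries 1430.5, 1140.3 and 590.4. Under treatment it reached 317, 313 and 324 TPM with SMN-C3, 709, 515 and 194 with Pifithrin-alpha and 1115, 898 and 601 with MW150. Every Smn-/- library lay above every WT library, and the change from WT to SMA was 4.51 (SE 0.40, adjusted p 1.8e-05).

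The captured RNA held all 12 motor neuron markers listed, such as Chat, Isl1 and Mnx1, at 1 TPM or more in every library. It also held markers of other cells: all 8 oligodendrocyte precursor markers, 9 of 10 astrocyte markers and 8 of 12 microglia markers reached 1 TPM in every library, and none of these was at 0 anywhere. Libraries WT 1 and SMA+Pifithrin-alpha 3 stood apart, with 21.9% and 20.4% of TPM in mitochondrially encoded genes against 3.76% to 12.6% in the remaining 13. They also had the fewest cell cycle genes at 1 TPM or more, 19 and 20 of 32, against 24 to 31 elsewhere. Where a change of one of the 32 genes from WT to SMA printed below moved by over 1.5 times without WT 1, that value is given. It stands beside the change or in the paragraph on this comparison. For genes outside the 32 no change without WT 1 is given.

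Cell cycle RNA was present at low levels, and by group medians the G1 genes stood above the mitotic ones. Over the 15 libraries, 5 of the 32 genes averaged 20 TPM or more (Ccnd2, Cdk4, Pcna, Ccne1 and Ccnd3), 3 averaged 10 to 20 TPM, 22 averaged 1 to 10 TPM, and Bub1 and Bub1b averaged under 1 TPM. By comparison the tested genes had a median of 10.2 TPM, and the median cell cycle gene lay above 33.4% of them. The median of the gene means was 18.3 TPM for the 8 G1 genes, 4.08 for the 4 cyclins and kinases of S phase to mitosis, 1.96 for the 11 mitosis and proliferation genes, 3.90 for the 5 replication genes and 5.22 for the 4 RB, E2F and DREAM genes. In 17 genes every library reached 1 TPM. Zeros occurred in 5 genes (Cdc20, Aurkb, Bub1, Bub1b and Mcm2), and WT 1 held a zero for each of those 5.

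**Figure D1:**
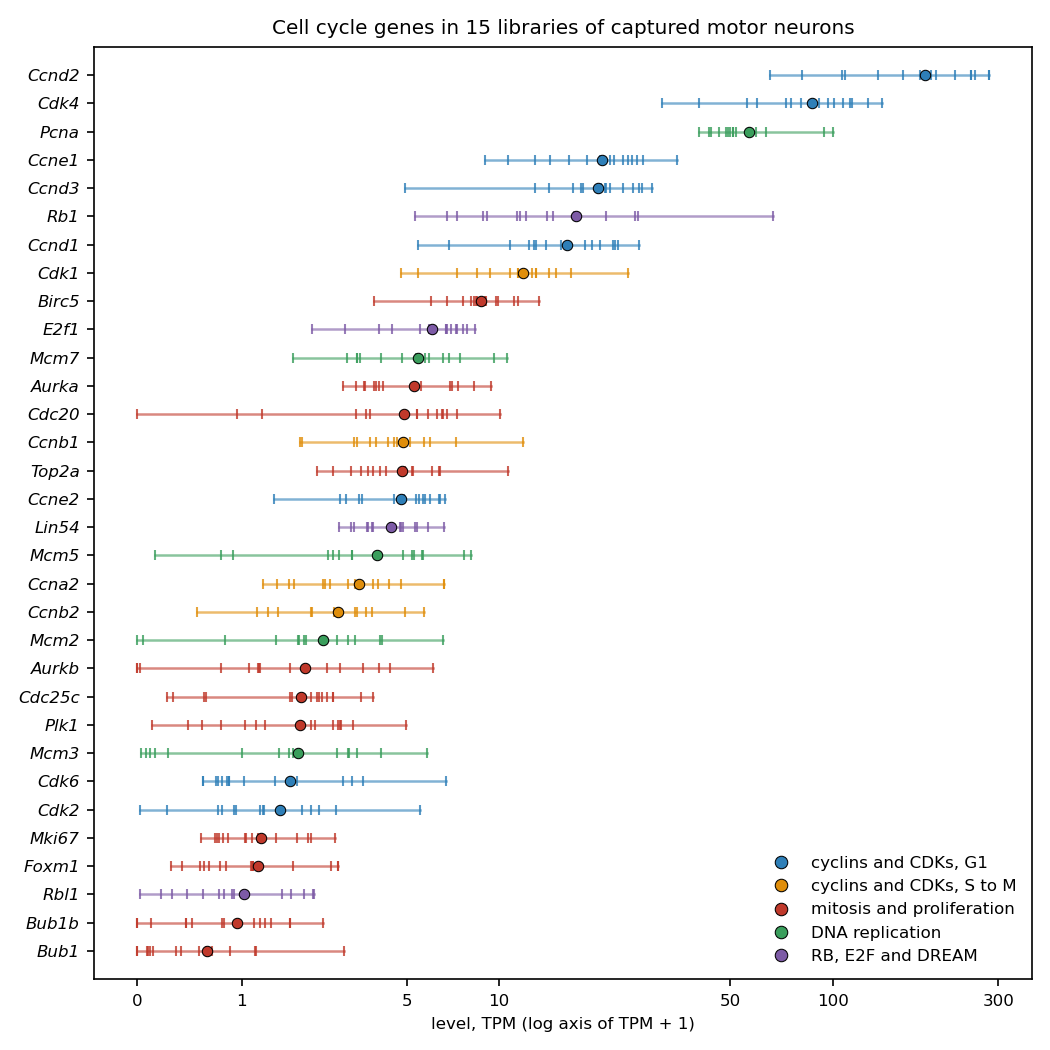
Level of each of the 32 cell cycle genes in TPM on a log axis of TPM + 1, with a tick per library, a line from the lowest to the highest of the 15 libraries and a dot at the mean. Ccnd2, Cdk4 and Pcna sit at the top, and most mitosis genes lie between 0 and 10 TPM with wide ranges.

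The G1 genes set the threshold for entering the cycle. Ccnd2, which encodes cyclin D2 (chromosome 6, 127125162 to 127152193, minus strand, GRCm38), had the highest level of all 32, at 65.2, 224 and 282 TPM in the WT libraries, at 134, 251 and 251 in SMA, at 283, 257 and 198 with MW150, at 159, 108 and 80.8 with Pifithrin-alpha and at 106, 192 and 178 with SMN-C3. The lowest library of all was WT 1, and the groups overlapped. Its change from WT to SMA was 0.34 (95% interval -0.60 to 1.28, adjusted p 0.70), and without WT 1 it was -0.30, so its direction rested on that library. Cdk4, the kinase partner of the D cyclins (chromosome 10, 127063534 to 127067920, plus strand), was at 40.6, 80.6 and 75.1 TPM in the WT libraries, at 112, 138 and 113 in SMA, at 100.4, 90.7 and 126 with MW150, at 96.7, 72.9 and 31.5 with Pifithrin-alpha and at 56.1, 59.97 and 106 with SMN-C3. All 3 SMA libraries lay above all 3 WT libraries, but the change of 0.93 (95% interval 0.14 to 1.72, adjusted p 0.34) was not called and was 0.11 with the mean of glial markers as a term. Ccnd1, Ccnd3 and Cdk6 also had SMA libraries wholly above WT, with changes of 0.86, 0.47 and 1.25 (adjusted p 0.37, 0.52 and 0.25). The cyclin E genes were not called either: Ccne1 was at 18.9 ± 8.70 TPM (SD, n = 3) in WT and 21.4 ± 11.7 in SMA, Ccne2 at 4.44 ± 1.30 and 3.73 ± 2.47. Their kinase gene Cdk2 averaged 1.58 TPM and ranged from 0.0205 to 5.52.

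Cdk6, the second D-cyclin kinase (chromosome 5, 3341485 to 3531008, plus strand), is described with all its values although it was singled out after they were seen. It was at 0.760, 1.502 and 0.689 TPM in the WT libraries, at 1.88, 6.76 and 3.46 in SMA, at 3.15, 0.837 and 2.92 with MW150, at 0.553, 0.820 and 0.840 with Pifithrin-alpha and at 0.711, 1.04 and 0.547 with SMN-C3. The SMA libraries lay above those of WT, Pifithrin-alpha and SMN-C3, while MW150 overlapped with SMA. The change from SMA was -1.42 (SE 0.41, adjusted p 0.46) with Pifithrin-alpha and -1.40 (SE 0.41, adjusted p 0.29) with SMN-C3. Neither was called. With the glial term they were -0.92 (adjusted p 1) and -0.94 (adjusted p 0.81), and with array weights the first was called (adjusted p 0.024). Ccnd3, singled out likewise, was at 21.3, 24.1 and 27.4 TPM in SMA and 18.0, 12.9 and 4.89 with Pifithrin-alpha, a change of -1.12 (SE 0.36, adjusted p 0.46). That change too was called with array weights (adjusted p 0.020), under which 10.2% of all genes (1574) were called in this comparison. It was -0.36 with the glial term and -0.63 without SMA+Pifithrin-alpha 3.

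**Figure D2:**
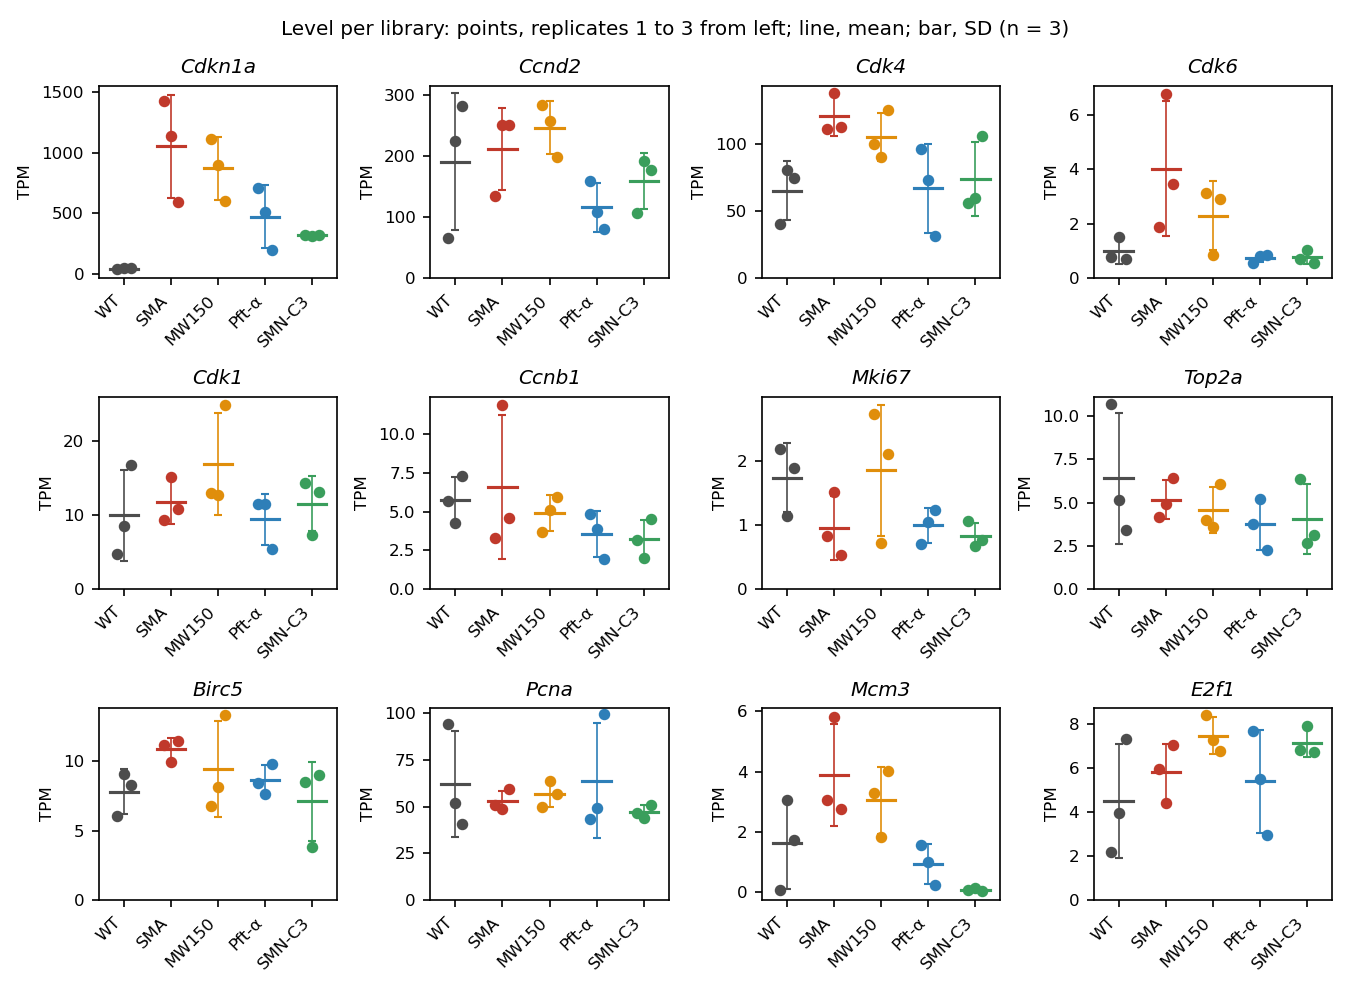
TPM per library of Cdkn1a and 11 cell cycle genes by group, with points for the 3 replicates, a line at the mean and a bar for the SD. Cdkn1a separates WT from every Smn-/- group, while Cdk1, Ccnb1, Mki67, Top2a and Pcna overlap between WT and SMA, and Mcm3 is lowest with SMN-C3.

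Genes of S phase to mitosis are transcribed late in the cycle through promoters that often hold a cell cycle genes homology region (CHR), the element the DREAM complex uses to repress them. Its letters were taken as TTTGAA or TTCGAA, on either strand. RefSeq promoter windows (250 bases before to 50 after the start, GRCm38.p6) were found for 24 of the 32 genes, and 12 of the 24 held a match in at least 1 window. Counted by window, 13 of 27 windows of these genes (48.1%) and 19.2% of all 32851 windows held one. TTCGAA reads the same on both strands, and TTTGAA appears as TTCAAA when it lies on the other strand. For CCAAT, on either strand, whose match can share its end letter with a CHR match, the shares were 70.4% and 37.4%. A match is a run of letters and not a shown binding site. The 120 bases just before the RefSeq start of 4 genes that mark dividing cells are printed to show these letters. Each of the 4 holds a CHR match there, so they do not stand for the genes without one. The bases run 5′ to 3′ on the strand of the gene, with CHR matches in capitals:
Cdk1, chr10:69352913-69353032, minus strand: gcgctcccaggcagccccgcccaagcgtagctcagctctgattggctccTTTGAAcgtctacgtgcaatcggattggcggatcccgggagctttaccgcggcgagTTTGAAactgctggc
Top2a, chr11:99024190-99024309, minus strand: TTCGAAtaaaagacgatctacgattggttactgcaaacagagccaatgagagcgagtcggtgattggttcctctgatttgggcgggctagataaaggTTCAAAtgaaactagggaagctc
Mki67, chr7:135716380-135716499, minus strand: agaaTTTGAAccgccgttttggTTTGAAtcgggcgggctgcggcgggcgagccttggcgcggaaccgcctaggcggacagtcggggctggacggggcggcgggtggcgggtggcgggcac
Cdc20, chr4:118437344-118437463, minus strand: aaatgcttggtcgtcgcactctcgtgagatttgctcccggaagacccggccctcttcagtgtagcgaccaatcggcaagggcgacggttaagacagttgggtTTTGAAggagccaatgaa
The matches begin 71 and 15 bases before the start in Cdk1, 120 and 23 in Top2a, 116 and 98 in Mki67, and 18 in Cdc20. Ccnb1, which is not printed, had a window with CCAAT matches but no CHR match.

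Among these late genes Cdk1, the mitotic kinase (chromosome 10, 69335146 to 69352938, minus strand), had the highest level, at 4.75, 8.49 and 16.8 TPM in the WT libraries, at 9.38, 15.1 and 10.8 in SMA, at 13.0, 12.7 and 24.9 with MW150, at 11.5, 11.4 and 5.45 with Pifithrin-alpha and at 14.3, 7.33 and 13.1 with SMN-C3. The highest value was SMA+MW150 3 and the lowest WT 1, and no group stood apart. Its change from WT to SMA was 0.34 (95% interval -0.57 to 1.25, adjusted p 0.70), so a rise of more than 2-fold lay within the interval. Without WT 1 it was -0.049. Ccnb1, cyclin B1 (chromosome 13, 100778650 to 100786570, minus strand), was at 5.68, 4.27 and 7.30 TPM in the WT libraries, at 3.30, 11.9 and 4.58 in SMA, at 3.70, 5.10 and 5.96 with MW150, at 4.84, 3.87 and 1.95 with Pifithrin-alpha and at 3.21, 1.98 and 4.503 with SMN-C3. Only SMA 2 exceeded 10 TPM, and the change of 0.029 (95% interval -0.87 to 0.93, adjusted p 0.98) became -0.44 without it. Ccna2 and Ccnb2, cyclins A2 and B2, averaged 3.35 and 2.78 TPM, with groups that overlapped between WT and SMA.

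The proliferation marker Mki67 (chromosome 7, 135689784 to 135716361, minus strand) encodes a protein of chromosome surfaces in cycling cells. It was at 2.18, 1.14 and 1.88 TPM in the WT libraries, at 0.830, 1.51 and 0.530 in SMA, at 2.72, 0.723 and 2.10 with MW150, at 0.699, 1.05 and 1.23 with Pifithrin-alpha and at 1.06, 0.676 and 0.769 with SMN-C3. It stayed under 3 TPM in every library, and WT and SMA overlapped. The change was -0.49 (95% interval -1.25 to 0.26, adjusted p 0.50), with the lower mean in SMA. Top2a, the topoisomerase that untangles replicated DNA (chromosome 11, 98992943 to 99024189, minus strand), was at 10.7, 5.18 and 3.41 TPM in the WT libraries, at 4.20, 4.91 and 6.44 in SMA, at 4.01, 3.61 and 6.08 with MW150, at 3.76, 5.24 and 2.29 with Pifithrin-alpha and at 6.39, 2.66 and 3.12 with SMN-C3. Its highest value was in WT 1, where Cdc20, Aurkb, Bub1 and Bub1b were at 0. The change was -0.16 (95% interval -1.03 to 0.71, adjusted p 0.86), and 0.23 without WT 1.

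Birc5, survivin of the chromosomal passenger complex (chromosome 11, 117849251 to 117855743, plus strand), was at 6.02, 9.11 and 8.31 TPM in the WT libraries, at 11.2, 9.92 and 11.5 in SMA, at 6.79, 8.13 and 13.3 with MW150, at 8.45, 7.66 and 9.82 with Pifithrin-alpha and at 8.49, 3.81 and 9.02 with SMN-C3. SMA and WT did not overlap, SMA being the higher, with an uncalled change of 0.44 (95% interval -0.29 to 1.17, adjusted p 0.53). Aurka, a spindle kinase (chromosome 2, 172356190 to 172370535, minus strand), was at 3.51, 3.52 and 3.97 TPM in WT and 3.79, 7.08 and 8.30 in SMA, where 1 SMA library overlapped with WT, and its change was 0.61 (SE 0.37, adjusted p 0.43). The MW150 libraries held 9.42, 7.40 and 5.29 TPM, the Pifithrin-alpha libraries 6.95, 3.28 and 2.93 and the SMN-C3 libraries 4.12, 5.55 and 3.87. Cdc20, an activator of the anaphase-promoting complex, had SMA libraries above WT by 1.24 (SE 0.62, adjusted p 0.39), with 0 TPM in WT 1, and the change was 0.29 without that library. Of the remaining mitosis genes, the kinase genes Plk1, Aurkb, Bub1 and Bub1b and the factor gene Foxm1 averaged 0.591 to 2.04 TPM. Their WT and SMA libraries overlapped, and their adjusted p for SMA against WT was 0.44 to 0.89.

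Cdc25c, the phosphatase that activates Cdk1, was singled out after its values were seen. It was at 0.270, 2.35 and 2.30 TPM in the WT libraries, at 2.67, 3.78 and 3.42 in SMA, at 1.78, 2.52 and 2.16 with MW150, at 2.40, 2.67 and 1.76 with Pifithrin-alpha and at 0.555, 0.217 and 0.578 with SMN-C3. All SMA, MW150 and Pifithrin-alpha libraries exceeded the 3 SMN-C3 libraries, and the 3 SMA libraries lay above all WT libraries. Its change was 0.82 (SE 0.38, adjusted p 0.37) from WT to SMA and -1.57 (95% interval -2.37 to -0.77, adjusted p 0.17) from SMA to SMN-C3. The first was 0.36 without WT 1 and 0.22, with overlapping libraries, in protein-coding transcripts only. Those made up 46.5% of its TPM and were listed at 0 in the 3 SMN-C3 libraries and also in WT 1 and SMA+Pifithrin-alpha 1.

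The replication genes divided into 1 abundant gene and 4 low ones. Pcna, the sliding clamp of DNA polymerases that also serves in DNA repair (chromosome 2, 132249162 to 132253314, minus strand), was at 94.2, 51.9 and 40.5 TPM in the WT libraries, at 51.00, 48.7 and 59.3 in SMA, at 50.04, 63.7 and 56.7 with MW150, at 43.2, 49.3 and 99.4 with Pifithrin-alpha and at 46.4, 44.0 and 51.02 with SMN-C3. The libraries of high mitochondrial share, WT 1 and SMA+Pifithrin-alpha 3, held its highest values, and the remaining 13 lay between 40.5 and 63.7 TPM. The change from WT to SMA was -0.14 (95% interval -0.83 to 0.55, adjusted p 0.84), and 0.20 without WT 1. Mcm7, a subunit of the replicative helicase (chromosome 5, 138164583 to 138172422, minus strand), was at 3.29, 6.91 and 9.64 TPM in the WT libraries, at 5.33, 4.05 and 5.74 in SMA, at 6.57, 7.50 and 10.6 with MW150, at 5.93, 3.02 and 3.28 with Pifithrin-alpha and at 3.38, 1.81 and 4.77 with SMN-C3, with a change of -0.25 (95% interval -1.09 to 0.59, adjusted p 0.76). The microRNA genes Mir106b, Mir25 and Mir93 lie within Mcm7 on its strand. Its helicase partners Mcm2 and Mcm5 averaged 2.42 and 3.90 TPM, with changes of 0.995 and 1.40 (adjusted p 0.42 and 0.36), and Mcm5 had SMA libraries above WT. Without WT 1 these changes were 0.35 and 0.80, and that of Mcm7 was -0.61.

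Mcm3, a further helicase subunit (chromosome 1, 20802968 to 20820312, minus strand), was also singled out after its values were seen. It was at 0.0626, 3.06 and 1.73 TPM in the WT libraries, at 3.05, 5.82 and 2.76 in SMA, at 3.29, 1.82 and 4.02 with MW150, at 1.57, 1.01 and 0.228 with Pifithrin-alpha and at 0.0888, 0.129 and 0.0269 with SMN-C3. The SMN-C3 libraries were the 3 lowest apart from WT 1, and they lay below every SMA, MW150 and Pifithrin-alpha library. The change from SMA to SMN-C3 was -2.12 (95% interval -3.10 to -1.14, adjusted p 0.14), the lowest adjusted p of the 32 genes in any pair of groups. With array weights, or without WT 1 and SMA+Pifithrin-alpha 3, the Mcm3 adjusted p was 0.0062 and 0.010. For Cdc25c the same settings gave 0.012 and 0.022. Under those settings 231 and 166 of all genes were called in this comparison, against 10 in the fit of all 15 libraries with equal weights. The number of calls over all genes thus rose under them. The glial term gave -1.17 (adjusted p 0.73) for Mcm3 and -1.09 (adjusted p 0.75) for Cdc25c. Coding transcripts alone gave -1.40 (adjusted p 0.42) and -1.199 (adjusted p 0.52). Coding transcripts made up 56.8% of the Mcm3 TPM. Against WT the SMN-C3 change of Mcm3 was -1.07 (SE 0.46, adjusted p 0.67), and WT 1 overlapped with SMN-C3.

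The regulators upstream of these genes were led by Rb1 and E2f1. Rb1, the retinoblastoma gene (chromosome 14, 73183673 to 73325822, minus strand), was at 66.9, 21.4 and 11.6 TPM in the WT libraries, at 8.93, 14.8 and 7.34 in SMA, at 26.2, 9.16 and 12.1 with MW150, at 11.4, 26.6 and 14.1 with Pifithrin-alpha and at 17.1, 6.78 and 5.32 with SMN-C3. WT 1 stood far above the other libraries, and the change from WT to SMA was -1.29 (95% interval -2.49 to -0.094, adjusted p 0.36), or -0.62 without WT 1. Most of the WT 1 value belonged to a processed transcript with no coding sequence (ENSMUST00000163932.1), which was at 56.9 TPM in WT 1 and at 16.9 and 2.14 in WT 2 and WT 3. The coding transcript (ENSMUST00000022701.6) lay between 3.66 and 11.9 TPM in all 15 libraries, at 4.90, 4.45 and 7.46 in WT and 8.25, 7.41 and 5.68 in SMA. Counted over protein-coding transcripts only, the Rb1 change turned to 0.31 (adjusted p 0.68).

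**Figure D3:**
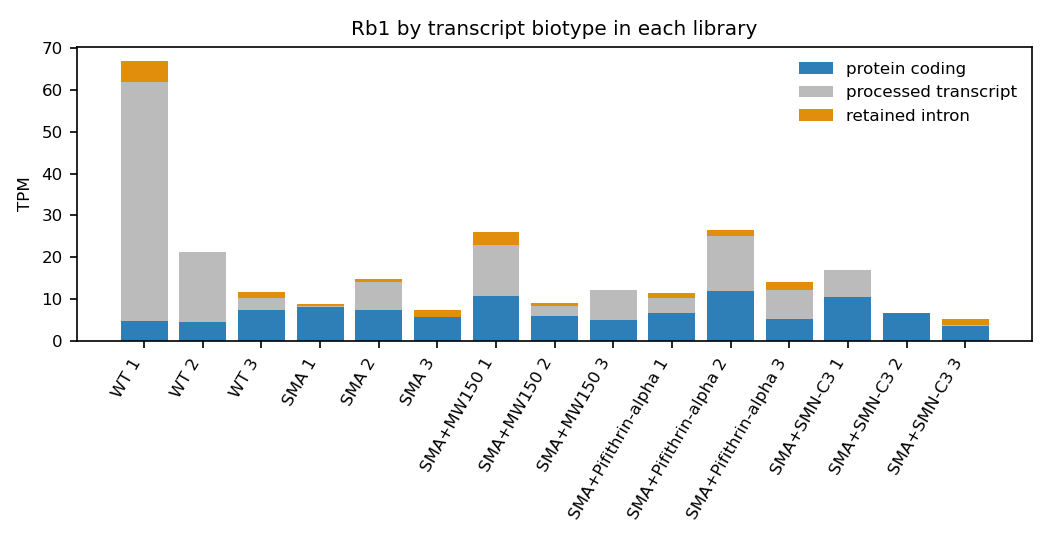
Rb1 TPM in each library stacked by transcript biotype. The coding part stays between 3.66 and 11.9 TPM, and the processed transcript makes up most of the 66.9 TPM in WT 1.

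E2f1, a factor held by RB proteins (chromosome 2, 154559407 to 154569892, minus strand), was at 2.20, 3.97 and 7.32 TPM in the WT libraries, at 5.94, 4.43 and 7.03 in SMA, at 8.40, 7.26 and 6.76 with MW150, at 7.68, 5.51 and 2.98 with Pifithrin-alpha and at 6.80, 7.90 and 6.74 with SMN-C3. The groups overlapped, and the change from WT to SMA was 0.40 (95% interval -0.41 to 1.203, adjusted p 0.61), or 0.063 without WT 1. Rbl1, the RB relative p107, averaged 1.03 TPM, of which 29.2% came from coding transcripts. Lin54, the DREAM subunit that binds the CHR, was the steadiest of this group at 2.81 to 6.63 TPM.

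No cell cycle gene was called in SMA against WT, the comparison that asks what loss of SMN changed. The count was 0 of 32 with limma at adjusted p, against a background of 0.363% of all genes. At an unadjusted p under 0.05 there were 8 of 32, 7 of them higher and Rb1 lower, against 13.5% of all genes. Without WT 1 and SMA+Pifithrin-alpha 3 there were 3, against 10.1% of all genes. With the mitochondrial share as a term there was 1, against 8.14%, and with the glial term described below 0, against 6.53%. In 8 genes (Ccnd1, Ccnd3, Cdk4, Cdk6, Cdc20, Cdc25c, Birc5 and Mcm5) the SMA libraries lay wholly above WT, and in 0 wholly below. By role these were 4 of the 8 G1 genes (median change 0.67), 0 of the 4 cyclins and kinases of S phase to mitosis (0.28), 3 of the 11 mitosis and proliferation genes (0.44), 1 of the 5 replication genes (0.995) and 0 of the 4 RB, E2F and DREAM genes (0.0026). These 8 are 25% of the 32, against 18.3% of all genes that did not overlap in either direction. The median change of the 32 genes was 0.34, with 23 positive, and that of all tested genes 0.24. With median-of-ratios scaling these medians were 0.20 and 0.038, a shift of all genes. They were 0.16 and 0.014 with quantile normalization, 0.072 and 0.023 with the mitochondrial term, and 0.21 and 0.12 without WT 1. Ccnd1 and Mcm3, at 0.86 and 1.05, were at 0.43 and 0.50 without WT 1, and Birc5 at 0.29. When the mean of the microglia, oligodendrocyte precursor and astrocyte markers was a term in the fit, the medians of the cell cycle genes and of all genes were -0.11 and -0.080. Of the glial markers, all 12 microglia markers were higher in SMA by value, of which C1qc was called. By value 6 of 8 precursor and 10 of 10 astrocyte markers were higher, with 0 called in either list. The summed microglia markers were at 71.0 to 100.0 TPM in WT and 191 to 224 in SMA, the oligodendrocyte precursor markers at 95.2 to 197 and 171 to 375, and the astrocyte markers at 758 to 1474 and 1363 to 1869. Markers of myelinating oligodendrocytes, at 694 to 2196 and 861 to 4507 TPM, were higher in 7 of 8 with a median change of 1.11 and 0 called. Red blood cell markers were higher in 5 of 5 tested, with a median of 0.54 and 0 called, while the 12 motor neuron markers had a median of 0.0072. Vascular markers were higher in only 4 of 9 tested, with a median of -0.22 and 0 called. Markers of meninges and fibroblasts were higher in 2 of 3 tested, with a median of 0.57 and 0 called. The part of these markers in the changes of single genes was not tested. In captured tissue, fewer cells of a type and less RNA per cell cannot be told apart.

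**Figure D4:**
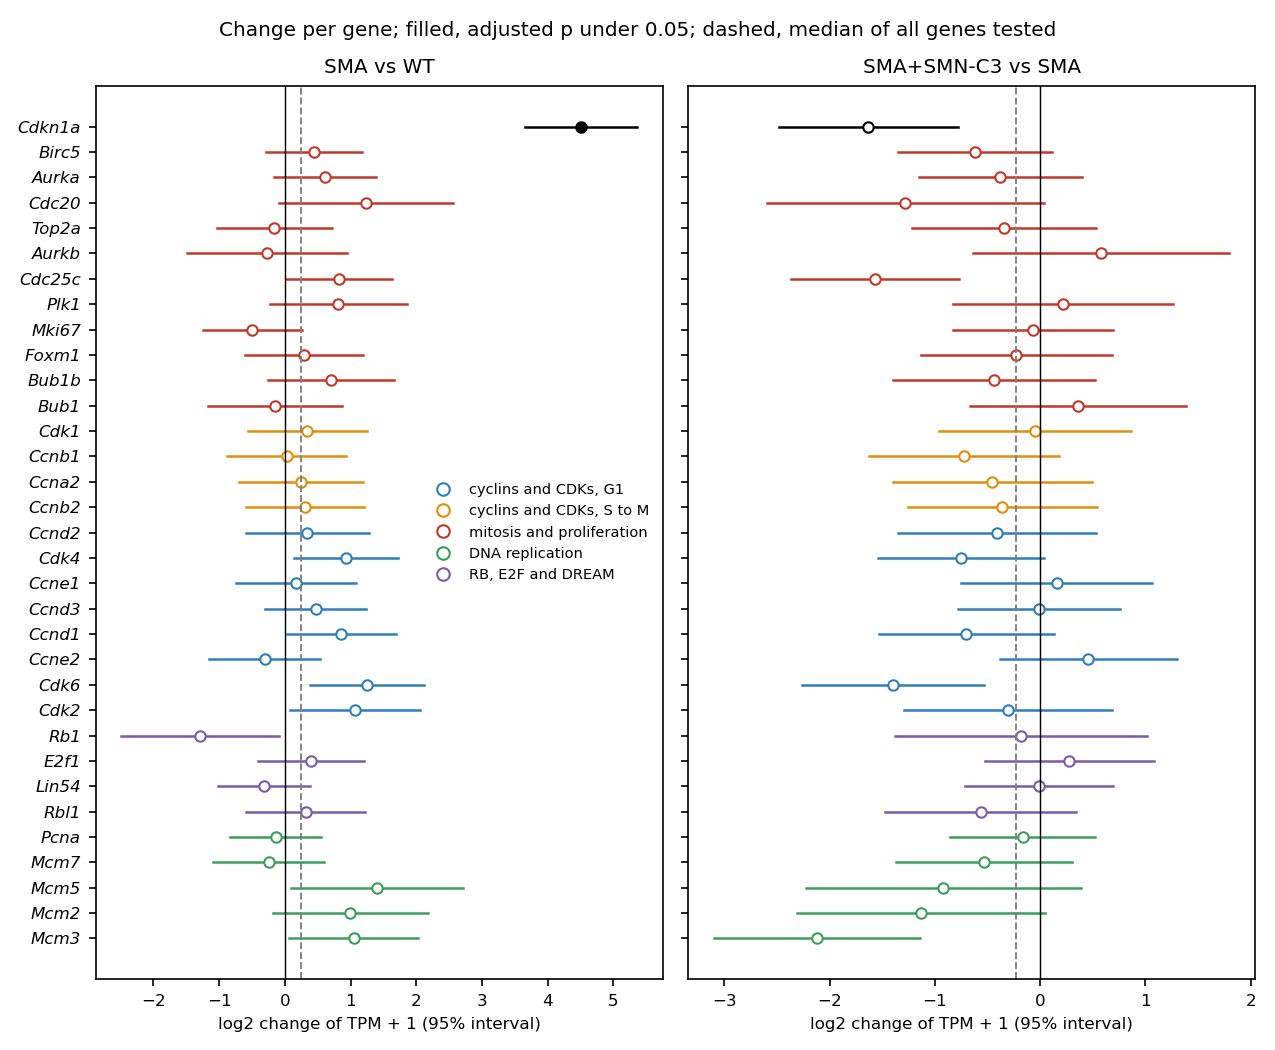
Log2 change and 95% interval of each cell cycle gene and Cdkn1a for SMA against WT and for SMA+SMN-C3 against SMA, with the median of all tested genes dashed. Only Cdkn1a in SMA against WT is filled (adjusted p under 0.05), and Mcm3, Cdc25c and Cdk6 have intervals below 0 with SMN-C3.

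Each treatment was compared with SMA, with the 3 SMA libraries shared by all 3 comparisons. With MW150, where Cdkn1a changed by -0.23 (SE 0.40, adjusted p 1), 0 of 32 genes were called (limma; background 0.00648%) and 0 had an unadjusted p under 0.05 (all genes 1.90%). Only 2 genes did not overlap, 1 in each direction (background 10.9%), and the median change was 0.18 beside 0.056 for all genes. With Pifithrin-alpha, where Cdkn1a changed by -1.25 (SE 0.40, adjusted p 0.46), 0 were called (background 0.00648%) and 5 had an unadjusted p under 0.05, or 15.6% against 10.7%. In 10 genes the Pifithrin-alpha libraries lay below SMA, 31.25% against 15.3% of all genes in either direction, and the median change was -0.40 beside -0.22. That median was -0.23 with median-of-ratios scaling, -0.16 with quantile normalization, -0.15 with the mitochondrial term and -0.25 without SMA+Pifithrin-alpha 3. With SMN-C3, where Cdkn1a changed by -1.63 (SE 0.40, adjusted p 0.17), 0 were called (background 0.0648%) and Mcm3, Cdc25c and Cdk6 had an unadjusted p under 0.05, 9.38% against 8.53%. Here 8 genes lay below SMA, 25% against 20.7%, with a median of -0.37 beside -0.23, or -0.15 beside -0.0070 with median-of-ratios scaling. With the glial term the medians became 0.094 for Pifithrin-alpha and 0.014 for SMN-C3. Medians of all genes are not given beside these, nor beside the alternatives for Pifithrin-alpha above. A shift of all genes is therefore not told apart there from a shift of the cell cycle genes. The summed microglia markers were at 82.6 to 145 TPM with Pifithrin-alpha and 99.3 to 132 with SMN-C3, and the oligodendrocyte precursor markers at 92.3 to 219 and 138 to 224.

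Against WT, whose libraries these comparisons share, 0 of 32 genes were called with MW150, Pifithrin-alpha or SMN-C3, beside backgrounds of 0.143%, 0.117% and 0.0194% (limma). At an unadjusted p under 0.05 there were 3, 1 and 2, or 9.38%, 3.12% and 6.25%, against 10.2%, 5.78% and 7.31% of all genes. The median changes were 0.58, -0.048 and -0.052, and those of all genes 0.31, 0.020 and -0.0042. Cdkn1a was called in all 3, at changes of 4.28, 3.26 and 2.88. Across all 5 groups at once, limma's F test called 0 of 32 (background 0.22%), with 4 at an unadjusted p under 0.05 (12.5% against 9.46%) and a lowest adjusted p of 0.24 for Mcm3.

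Other genes of the same pathways were not called either, Cdkn1a apart. Of 100 further genes listed for mitosis, replication, RB, E2F and DREAM, checkpoint kinases, CDK inhibitors and neuronal CDKs, 96 were tested and 0 were called in any of the 7 comparisons or the F test. For SMA against WT 12 of the 96 had an unadjusted p under 0.05, 14 lay above WT and 1 below, and their median change was 0.20. Those are 12.5% and 15.6%, under the 13.5% and 18.3% of all genes. For SMN-C3 against SMA 19 genes lay below SMA and 1 above, or 20.8% against 20.7% of all genes, with a median of -0.35 beside -0.23.

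Within groups, where Cdkn1a and glial markers vary between replicates of 1 genotype and treatment, the late genes had higher correlations with glial markers than with Cdkn1a, a difference that was not tested. The mean log2 level of the 15 genes of S phase to mitosis was computed per library, and group means were subtracted before correlating. Over the 15 libraries its r was 0.32 with Cdkn1a (rho 0.24), 0.67 with the microglia markers (rho 0.64), 0.90 with the oligodendrocyte precursor markers (rho 0.83) and 0.86 with the astrocyte markers (rho 0.82). It was -0.66 with the mitochondrial share. Without the 2 libraries farthest from the median of each reference, r was 0.15, 0.62, 0.86 and 0.81 in the same order. These are descriptions of 15 libraries that share depth and scaling, and no p is attached to them. The late genes and the glial references are means over lists, whereas Cdkn1a is a single gene. No mean of other genes was set beside them, so the sizes of these r are not directly comparable. Log2 Cdkn1a varied little within SMN-C3 (8.29 to 8.34) and WT (5.20 to 5.60), so its r rests mainly on the remaining groups. The mean of the precursor markers ranged from 3.63 to 4.22 within SMN-C3 and from 3.34 to 4.08 within WT.

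**Figure D5:**
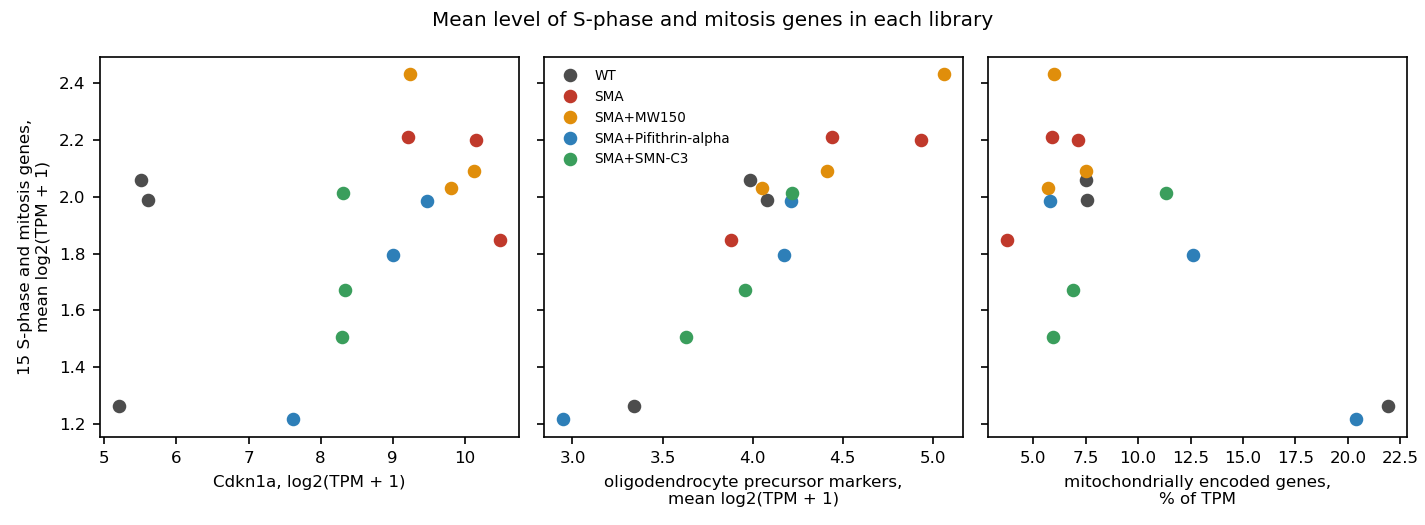
Mean log2(TPM + 1) of the 15 genes of S phase to mitosis in each library against Cdkn1a, the mean of the oligodendrocyte precursor markers and the mitochondrial share, coloured by group. WT libraries have Cdkn1a at 5.20 to 5.60 and late genes at 1.26 to 2.06, and libraries with more precursor marker RNA have more late gene RNA.

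The relation with Cdkn1a turned with the libraries and the scaling, and that of the mean with precursor markers kept its sign under the same settings. Without WT 1 and SMA+Pifithrin-alpha 3, r was -0.48 with Cdkn1a, 0.26 with microglia, 0.85 with precursor and 0.89 with astrocyte markers. Leaving out SMA+Pifithrin-alpha 3 alone gave -0.14 with Cdkn1a. After median-of-ratios scaling the 4 values were -0.19, 0.36, 0.80 and 0.72. In TPM as deposited the median r over all tested genes was 0.31 with Cdkn1a, 0.37 with microglia, 0.32 with precursor and 0.28 with astrocyte markers, while the single cell cycle genes had medians of 0.21, 0.45, 0.48 and 0.44.

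Gene by gene, exact two-sided permutation within groups (7776 orders, Benjamini-Hochberg over all tested genes) called 0 of 32 for Cdkn1a and for each of the 3 glial references. The background was 0% for Cdkn1a, 0% for microglia, 0% for precursor and 0.272% for astrocyte markers. For the mitochondrial share 1 of 32 was called, against 10.1% of all genes: Mcm5, with r -0.70 (rho -0.77, exact permutation p 0.0032, adjusted 0.042; r -0.66 without the 2 farthest libraries). At an unadjusted p under 0.05 there were 2 of 32 for Cdkn1a, 10 for microglia, 13 for precursor and 13 for astrocyte markers, or 6.25%, 31.25%, 40.6% and 40.6%, against 15.04%, 14.6%, 15.5% and 14.4% of all genes. Without WT 1 and SMA+Pifithrin-alpha 3, which leaves 864 orders, there were 1, 3, 1 and 1 of 32. Those are 3.12%, 9.38%, 3.12% and 3.12%, against 3.93%, 7.12%, 10.3% and 8.51% of all genes. The median r of the 32 genes was then -0.17, 0.18, 0.35 and 0.39, beside 0.046, 0.16, 0.039 and 0.066 for all genes. Without WT 1 alone there were 2, 5, 10 and 9 (all genes 8.49%, 8.90%, 11.3% and 11.6%). Without SMA+Pifithrin-alpha 3 alone there were 2, 6, 8 and 8 (all genes 6.64%, 9.14%, 8.88% and 8.75%). With median-of-ratios scaling there were 1, 3, 8 and 3, against 5.32%, 3.59%, 9.94% and 8.64%. Over Cdkn1a and the glial references the lowest p was that of Cdk1, with r 0.81 for astrocyte markers (rho 0.82, exact permutation p 6.4e-04, adjusted 0.085). For precursor markers Cdk1 had r 0.83 (rho 0.86, exact permutation p 0.0012, adjusted 0.12), and with Cdkn1a 0.26 (p 0.40, exact permutation). The 2 genes under 0.05 for Cdkn1a ran opposite to it: Pcna had r -0.72 and Ccne2 -0.67 (adjusted p 0.27 and 0.30, exact permutation). Without the 2 libraries farthest from the median of Cdkn1a those values were -0.55 and -0.53. Pcna had a positive relation with the mitochondrial share within groups (r 0.85, and 0.60 without the 2 farthest libraries), and its part in the relation with Cdkn1a was not tested. Over the 12 Smn-/- libraries, with group means kept, the highest r with Cdkn1a were 0.85 (Mcm3), 0.84 (Ccnd1), 0.78 (Cdc20) and 0.77 (Cdk4). The lowest was -0.38 (Ccne2). With precursor markers the same genes had 0.71, 0.79, 0.78, 0.81 and 0.045. They had 0.85, 0.82, 0.78, 0.79 and -0.16 with microglia markers and 0.85, 0.78, 0.88, 0.80 and -0.091 with astrocyte markers. Cdk1, Ccnb1, Mki67 and Top2a had 0.40, 0.58, 0.24 and 0.34 with Cdkn1a and 0.90, 0.81, 0.41 and 0.77 with precursor markers. With microglia markers they had 0.46, 0.65, 0.26 and 0.42, and with astrocyte markers 0.75, 0.86, 0.38 and 0.74.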

How the data were processed

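The authors deposited TPM values per gene and per transcript for the 15 libraries, made with kallisto 0.44.0 on GRCm38.p6 per the submitters' processing notes, from paired reads of 100 bases per the labels' protocols. The annotation release is not given in the sources used here; 98.5% of the 118489 transcript identifiers matched GENCODE M21, from which coordinates and biotypes were taken. Every column summed to 1000000. TPM keeps no counts, so the depth is unknown and intervals come from the fit.

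Groups were taken from the sample labels. TPM was transformed as log2(TPM + 1), and genes reaching 1 TPM in 3 or more libraries were fitted with limma 3.58.1 (R 4.3.3; a mean per group, variance trend, two-sided, Benjamini-Hochberg over all genes tested). Covariation used Python 3.11.15 and SciPy 1.17.1, with exact permutation within groups; its adjustment runs over all genes instead of the 32 genes as first written. Both steps were tested on simulated data. The genes and all lists were chosen with earlier results of these data known. Values per library are given for the 2 most abundant genes of each group of cell cycle genes, Mki67, Top2a, Ccnb1 and Cdk1, and for genes singled out afterwards, as marked. Overlap with another annotated gene affects 18 of the 32, and strandedness is not stated. Replicate numbers were checked for pairing by the correlation of deviations from group means, which exceeded 0.1 in every pair only for SMN-C3 and WT (0.285, 0.105 and 0.182). The labels name the replicates biological and do not tell which animals they came from. Alternatives covered the pseudocount, filters, scaling, weights, added terms, transcripts and left-out libraries.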

Additional observations from a re-analysis of the deposited data

How the results depend on the processing

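The count of 0 called cell cycle genes held in all 7 comparisons and the F test under every alternative except 2. Array weights called 5 for Pifithrin-alpha against SMA, 2 for SMN-C3 against SMA, 2 for Pifithrin-alpha against WT and 11 in the F test, where 10.2%, 1.498%, 3.95% and 20.9% of all genes were called. Leaving out WT 1 and SMA+Pifithrin-alpha 3, the pair with the highest mitochondrial share, called 2 for SMN-C3 against SMA and 1 in the F test, beside 1.09% and 0.860% of all genes. A replicate block, with the replicate number as a term in a paired fit, called 0 of 32 in every comparison. Covariation with Cdkn1a or the 3 glial lists gave 0 calls under every alternative run. For the mitochondrial share, a reference added after seeing the data, the count of 1 became 2 of 12 with a filter at a mean of 5 TPM. There 2421 of 10011 genes were called. Protein-coding transcripts only gave 2 of 31, beside 1965 of 13619 genes. With no filter the count was 0, beside 224 of 27027 genes, and with quantile normalization 0, beside 996 of 15424. Without that pair of libraries it was 0, and 0 of all genes were called. Leaving out single libraries gave 0 to 1. Without WT 1 the count was 0, and 0 of all genes were called.

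The median change moved with the glial term to -0.11 for SMA against WT, where the mitochondrial term gave 0.072, 0.094 for Pifithrin-alpha and 0.014 for SMN-C3 against SMA, and -0.012 for MW150 against WT. For MW150 against WT it was 0.29 with median-of-ratios scaling, 0.13 with quantile normalization, 0.25 with array weights, 0.19 with the mitochondrial term and 0.23 without that pair of libraries. For SMN-C3 against SMA it was -0.036 with quantile normalization. Medians of all genes are not set beside the values of this paragraph. Leaving out each library in turn gave 0.21 to 0.63 for SMA against WT (highest without WT 3), 0.23 to 0.71 for MW150 against WT (lowest without WT 1) and -0.18 to 0.26 for SMN-C3 against WT (highest without WT 3).

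Uncalled changes from WT to SMA turned direction as follows. With array weights they were -0.12 for Ccnd2, 0.16 for Pcna and 0.20 for Top2a. With the mitochondrial term they were -0.32 for Ccnd2, -0.048 for Cdk1, -0.082 for Ccnb1, 0.31 for Pcna, -0.066 for E2f1 and 0.10 for Top2a. With the glial term they were -0.39 for Ccnd2, -0.60 for Cdk1, -0.71 for Ccnb1, 0.49 for Pcna and -0.032 for E2f1. Without that pair they were -0.30 for Ccnd2, -0.049 for Cdk1, 0.20 for Pcna and 0.23 for Top2a. Ccnb1 was at -0.18 with median-of-ratios scaling and -0.19 with quantile normalization. Protein-coding transcripts only, an alternative chosen after seeing the data, gave -0.0060 for Ccnb1, 0.14 for Mcm7 and 0.31 for Rb1. Leaving out single libraries gave -0.30 to 0.75 for Ccnd2, -0.049 to 0.77 for Cdk1, -0.44 to 0.36 for Ccnb1, -0.40 to 0.20 for Pcna, -0.61 to 0.042 for Mcm7 and -0.47 to 0.23 for Top2a. The r of the late genes with Cdkn1a was -0.19 with median-of-ratios scaling, -0.16 with quantile normalization, -0.48 without the pair and -0.14 to 0.48 without single libraries. The cause of each shift was not tested. With 3 libraries a group and unknown depth, intervals of most genes span changes of 2-fold, so a missing call does not show an absent change.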

Other observations

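Neuronal relatives of the cycle kinases were more abundant than most cell cycle genes. Cdk5, a kinase active in postmitotic neurons, was at 158 ± 78.8 TPM (SD, n = 3) in WT and 231 ± 27.5 in SMA, with WT 1 lowest of these 6 and an uncalled change of 0.70 (SE 0.36, adjusted p 0.39) (limma). Its activator genes Cdk5r1 and Cdk5r2 averaged 15.02 and 13.4 TPM. Cdk16, a further neuronal kinase gene, averaged 114 TPM.

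Among the CDK inhibitors Cdkn1a was the only gene called in any comparison, and it was not the only abundant one. Cdkn2d, an inhibitor of Cdk4 and Cdk6, was at 112, 174 and 187 TPM in WT and 190.4, 145 and 179 in SMA with a change of 0.14 (SE 0.27, adjusted p 0.80), so it exceeded Cdkn1a in WT and lay below it in SMA. WT 1 held the lowest of these Cdkn2d values, and the direction of this change without it is not given. Cdkn1c, the p57 gene, ranged from 2.51 to 74.6 TPM over the 15 libraries, with an uncalled change from WT to SMA of 1.497 (SE 0.79, adjusted p 0.40). Cdkn1b averaged 2.76 TPM. Cdkn2a was listed at 0 in every library.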
